A study of Mus musculus with 4 samples.

Results

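The MHC class II presentation genes studied here are 10 genes taken by symbol from a table of 22222 mouse genes: Cd74, H2-Aa, H2-Ab1, H2-Eb1, H2-DMa, H2-DMb1, H2-DMb2, H2-Oa, H2-Ob and Ciita. All 10 were in the table and all 10 passed the filter on low values, with 15419 genes passing in all. The levels came from RNA-seq of cells sorted from keratoacanthomas, mouse skin tumours that can regress by themselves, raised by 20 weeks of the carcinogen DMBA. One group was collected 1 week after DMBA was stopped (1-week, 2 mice), and the other while DMBA was still being given (on-DMBA, 2 other mice). Every mouse had received DMBA and every tumour was sorted for Tomato and P-cadherin (Tomato+/Pcadherin+, cell type "Epi"), so both groups share these. The sources used here give neither the strain and age nor the driver of the Tomato label. Each library is 1 mouse and n = 2 per group throughout.

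MHC class II molecules show peptides from taken-up proteins to CD4+ T cells. An alpha chain and a beta chain are assembled on the invariant chain Cd74, which guides them to endosomes. There H2-DM exchanges the last piece of Cd74 for a peptide, and H2-O restrains H2-DM. Dendritic cells, including the Langerhans cells of the epidermis, and B cells carry class II all the time. Macrophages carry more of it once activated, and keratinocytes can be made to carry it by interferon gamma. Transcription needs Ciita, a coactivator that does not bind DNA itself. It is held on the promoters by RFX and CREB at the X box and by NF-Y at the Y box.

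The promoters are shown because these shared boxes are the textbook reason for treating the genes as a unit. Of the 10 genes, 7 matched the RefSeq promoter table by symbol (GRCm38.p6, a later build than that of the expression table). A set of 3 words was searched on both strands in the 250 bases before each gene start. The first was TGATTGG, the core of the Y box that NF-Y binds. The second was ATGATGC, from the X2 part of the X box of several class II genes. The third was GACGTCA, from the cyclic AMP response element that CREB binds, which is another form of X2. The words did not overlap one another in the promoters printed, and they were chosen with these promoters in view. TGATTGG was found in 6 of the 7 genes and in 7.23% of all 32851 promoters. ATGATGC was found in 4 of the 7 and in 1.99% of promoters, and GACGTCA in 1 of the 7 and in 2.78%. TGATTGG together with either X2 word was found in 5 of the 7 genes and in 0.374% of promoters. The 130 bases before the start of those 5 genes are printed 5′ to 3′, with the words in capitals.
H2-Aa (chr17:34287824-34287953, minus strand): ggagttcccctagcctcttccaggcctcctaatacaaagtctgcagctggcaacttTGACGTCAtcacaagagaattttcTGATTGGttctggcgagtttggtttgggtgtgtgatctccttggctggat
H2-Eb1 (chr17:34305737-34305866, plus strand): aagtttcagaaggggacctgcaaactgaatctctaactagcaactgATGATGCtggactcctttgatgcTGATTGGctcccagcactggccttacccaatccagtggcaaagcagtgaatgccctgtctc
H2-DMb1 (chr17:34153061-34153190, plus strand): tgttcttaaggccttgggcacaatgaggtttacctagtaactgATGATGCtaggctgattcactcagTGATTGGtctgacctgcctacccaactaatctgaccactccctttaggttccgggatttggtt
H2-DMb2 (chr17:34145119-34145248, plus strand): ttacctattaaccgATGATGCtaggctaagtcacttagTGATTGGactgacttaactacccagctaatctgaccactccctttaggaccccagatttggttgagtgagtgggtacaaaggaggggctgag
H2-Ob (chr17:34238775-34238904, plus strand): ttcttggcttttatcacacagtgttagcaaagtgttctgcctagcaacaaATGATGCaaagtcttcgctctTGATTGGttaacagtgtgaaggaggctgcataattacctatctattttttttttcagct

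In each of the 5 the X2 word came before the Y box word, in the direction of the gene. In H2-Aa the 8 capitals are TGACGTCA because GACGTCA matched both strands there with 1 base of offset. The gap between the end of the X2 word and the start of the Y box word was 17 bases in H2-DMb1 and H2-DMb2, 16 in H2-Aa and H2-Eb1, and 14 in H2-Ob. H2-Oa held TGATTGG alone, and neither promoter listed for H2-DMa held any of the 3 words. A match is a run of letters and not evidence of binding.

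**Figure D1:**
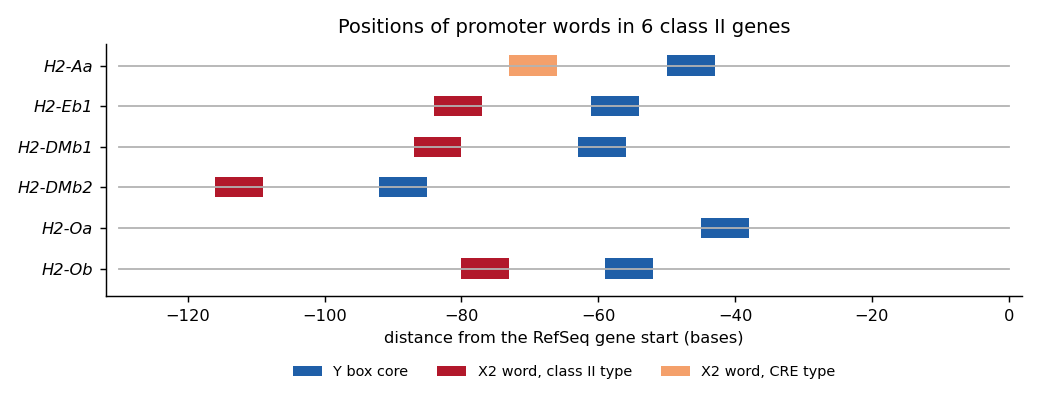
Positions of the Y box core and the X2 words in the promoters of 6 class II genes, with the distance in bases from the RefSeq gene start on the horizontal axis and 1 gene per line. In 5 genes an X2 word lies 14 to 17 bases before the Y box word, and H2-Oa holds the Y box word alone.

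The libraries held 5551937 and 7662159 reads at 1 week, against 9678682 and 5635945 on DMBA, recovered from the deposited values. Levels are scaled CPM, a gene's reads divided by a library size that the authors had scaled, and replicate 1 comes before replicate 2. The on-DMBA libraries did not resemble each other. The summed level of 8 keratinocyte markers (among them Krt5, Krt14 and Cdh3) was 4204 and 3361 at 1 week, against 52290 and 535 on DMBA. That of 5 pan-leukocyte genes (Ptprc, Laptm5, Coro1a, Cd53, Lcp1) was 1428 and 2677 at 1 week, against 9.26 and 2424 on DMBA. On-DMBA replicate 1 was thus the highest of the 4 in keratinocyte transcripts and the lowest in leukocyte transcripts, while on-DMBA replicate 2 was the lowest in keratinocyte transcripts, although all 4 carry the same sort label.

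Class II transcripts were abundant in both 1-week libraries and in 1 of the 2 on-DMBA libraries, and scarce in the other. Together the 10 genes took 0.541% and 0.685% of reads at 1 week, against 0.00484% and 0.679% on DMBA. In reads this was 30035 and 52524 at 1 week, against 468 and 38288 on DMBA. On-DMBA replicate 1 had the lowest level of each of the 10 genes, and of 5783 of the 15419 genes tested. On-DMBA replicate 2 lay among the 1-week libraries or close to them. In bulk RNA, fewer cells that carry class II and less class II RNA per cell cannot be told apart.

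**Figure D2:**
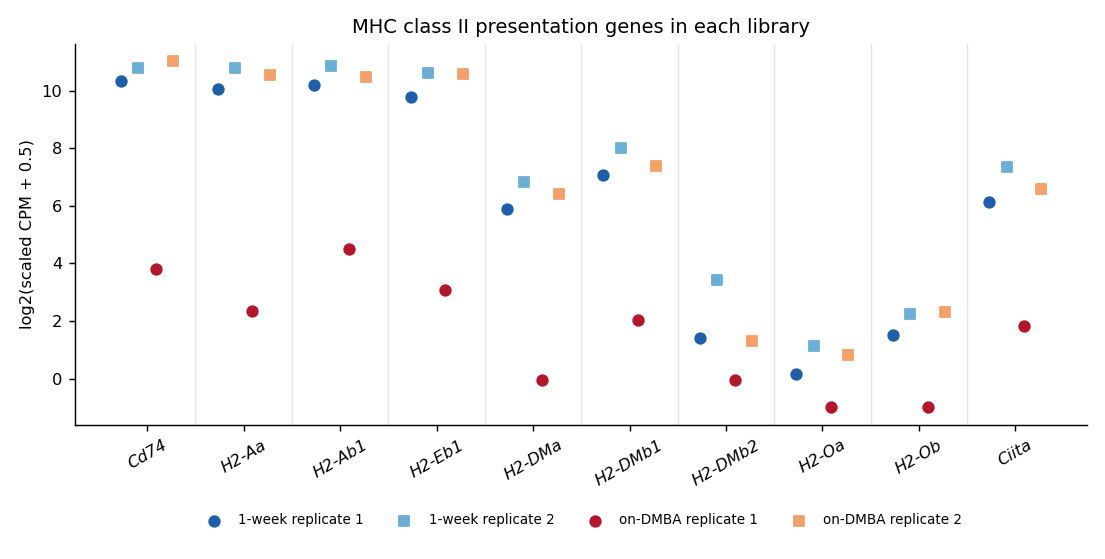
Level of each class II gene as log2(scaled CPM + 0.5) in the 2 libraries at 1 week and the 2 on DMBA, with 1 point per library. On-DMBA replicate 1 is the lowest point for all 10 genes, and the other 3 libraries lie near each other except for H2-DMb2, where 1-week replicate 2 stands above the rest.

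H2-Aa and H2-Ab1 encode the alpha and beta chains of the classical A molecule. H2-Aa was at 1073 and 1756 scaled CPM at 1 week, against 4.63 and 1481 on DMBA. The group means were 1414 ± 483 at 1 week and 743 ± 1044 on DMBA (SD, n = 2 each). H2-Ab1 was at 1174 and 1859 at 1 week, against 21.97 and 1433 on DMBA, with means of 1516 ± 485 and 727 ± 997 (SD, n = 2 each). For both genes the groups overlapped, since on-DMBA replicate 2 lay between the 1-week libraries. The log2 difference, 1-week minus on-DMBA, was 3.98 (SE 2.59) for H2-Aa and 3.04 (SE 1.96) for H2-Ab1, and neither passed (limma adjusted p = 0.9997 for both).

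H2-Eb1 encodes the beta chain of the E molecule. It was at 883 and 1565 scaled CPM at 1 week, against 7.96 and 1525 on DMBA, a log2 difference of 3.37 (SE 2.40). The groups overlapped here too. Its partner, the E alpha chain, is listed in the table only as H2-Ea-ps, the symbol for the copy that is a pseudogene in the reference strain. H2-Ea-ps had 0 and 0.14 scaled CPM at 1 week, against 0 and 0.18 on DMBA, or at most 1 read in a library. The further E beta locus H2-Eb2 was at 1.56 and 3.42 at 1 week, against 0.12 and 1.26 on DMBA. It was low in every library and higher in both 1-week libraries than in either on-DMBA library, but did not pass (log2 difference 1.45, SE 0.88).

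Cd74, the invariant chain, was at 1295 and 1760 scaled CPM at 1 week, against 13.4 and 2080 on DMBA. Its means were 1528 ± 329 at 1 week and 1046 ± 1461 on DMBA (SD, n = 2 each). Unlike the A chains, Cd74 had its highest level on DMBA, in replicate 2, and its lowest also on DMBA, so the groups overlapped fully. The log2 difference was 3.15 (SE 2.32) and did not pass.

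The peptide exchange factor H2-DM is made of H2-DMa and a DM beta chain from H2-DMb1 or H2-DMb2. H2-DMa was at 59.5 and 114 scaled CPM at 1 week, against 0.475 and 85.1 on DMBA, a log2 difference of 3.18 (SE 2.08). H2-DMb1 was at 135 and 258 at 1 week, against 3.56 and 166 on DMBA, a log2 difference of 2.85 (SE 1.74). For both, on-DMBA replicate 2 lay between the 1-week libraries.

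H2-DMb2, the second DM beta gene, had a different course. It was at 2.19 and 10.1 scaled CPM at 1 week, against 0.475 and 1.97 on DMBA, which is 14 and 71 reads against 4 and 11 reads. Both 1-week values were above both on-DMBA values, although 1-week replicate 1 exceeded on-DMBA replicate 2 by little. The log2 difference was 1.78 (SE 1.01) and did not pass. The 2 DM beta genes are close copies of each other, so reads may have been shared between them in counting. Relative to H2-DMb1, H2-DMb2 had a read ratio of 0.0162 and 0.0392 at 1 week, against 0.133 and 0.0119 on DMBA. The 95% exact binomial intervals, which cover counting error only, were 0.00881 to 0.0273 and 0.0305 to 0.0497 at 1 week, and 0.0341 to 0.378 and 0.00593 to 0.0214 on DMBA. The ratio in 1-week replicate 2 was thus above that in 1-week replicate 1 and in on-DMBA replicate 2 by more than counting error.

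H2-Oa and H2-Ob encode the chains of H2-O, the inhibitor of H2-DM that is best known from B cells. H2-Oa was at 0.63 and 1.71 scaled CPM at 1 week, against 0 and 1.26 on DMBA. H2-Ob was at 2.34 and 4.28 at 1 week, against 0 and 4.49 on DMBA. Both were low everywhere, with at most 30 reads, and were listed at 0 in on-DMBA replicate 1, where 0 reads allow up to 0.356 scaled CPM. The log2 differences were 0.75 (SE 0.94) for H2-Oa and 1.22 (SE 1.26) for H2-Ob, and neither passed. Beside them, 4 of 6 B cell markers were under the filter. One of these, Pax5, was at 0.16 and 0.14 scaled CPM at 1 week, against 0.12 and 0.18 on DMBA.

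Ciita, the coactivator, was at 69.7 and 162 scaled CPM at 1 week, against 3.09 and 94.6 on DMBA, with means of 116 ± 65.5 and 48.8 ± 64.7 (SD, n = 2 each). Of the 10 genes it had the second widest gap between the 1-week libraries, 1.21 on the log2 scale, after H2-DMb2 with 1.98. On-DMBA replicate 2 lay between the 1-week libraries. The log2 difference was 2.53 (SE 1.58) and did not pass.

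With all 4 libraries no class II gene passed. In limma on log2(scaled CPM + 0.5), at an adjusted p under 0.05 over all genes tested, 0 of the 10 were called in either direction, where the share called of all genes tested was 0% higher and 0% lower. Before adjustment, at the same threshold, the count was again 0 of 10, where 2.28% of all genes tested were higher and 0.195% lower. EdgeR on the recovered reads called 0 of the 10 (all genes tested: 0% higher and 0% lower), and before adjustment also 0 of the 10 (1.49% higher and 0.272% lower). DESeq2 called 0 of the 10 as well (0.104% higher and 0.0195% lower), and 0 before adjustment (2.5% higher and 1.15% lower). With the replicate number as a block, 2 of the 10 were called higher, where 1.85% of all genes tested were higher and 0.0195% lower. The labels do not give that number as a pairing of the mice. All 10 log2 differences were positive, with a median of 2.95 against -0.024 over all genes tested. The groups did not overlap for 1 of the 10, H2-DMb2, where 14% of all genes tested were higher at 1 week without overlap and 9.14% lower. The fits to reads gave a smaller median of the 10, at 0.98 in edgeR and 0.91 in DESeq2. Cd74 stood at 0.54 and H2-Aa at 0.92 in edgeR. H2-DMb2 and H2-Oa instead had larger differences there than in limma, at 2.34 and 0.96 in edgeR.

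The positive differences rested on on-DMBA replicate 1. With that library left out, the median of the 10 was -0.077, against 0.035 over all genes tested, and 0 of 10 passed (2.35% higher and 0.999% lower among all genes tested). Cd74 was then at -0.46 (SE 0.71), H2-Eb1 at -0.38 (SE 0.69) and H2-Ob at -0.44 (SE 0.80). H2-Ab1 was at 0.044 (SE 0.70) and Ciita at 0.17 (SE 0.58). H2-DMb2 alone stayed above 1 on the log2 scale, at 1.11 (SE 0.79). With on-DMBA replicate 2 left out instead, the median was 5.78 and 8 of 10 were called higher, where 14.3% of all genes tested were higher and 10% lower. H2-Aa then stood at 8.06 (SE 0.62) and H2-Eb1 at 7.12 (SE 0.62), while H2-Oa (1.66) and H2-Ob (2.88) did not pass. In both of these fits the lone on-DMBA library was assumed to vary like the 1-week libraries, so they compare that library with 2 others.

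Counts of non-overlapping groups also turned on single libraries. Without 1-week replicate 1, 8 of the 10 were higher without overlap and 0 lower (26% and 17.2% of all genes tested). Without 1-week replicate 2, 1 was higher and 0 lower (27.2% and 31.2%). Without on-DMBA replicate 1, 1 was higher and 2 lower (34.6% and 26.1%). Without on-DMBA replicate 2, 10 were higher and 0 lower (40.2% and 43.8%).

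**Figure D3:**
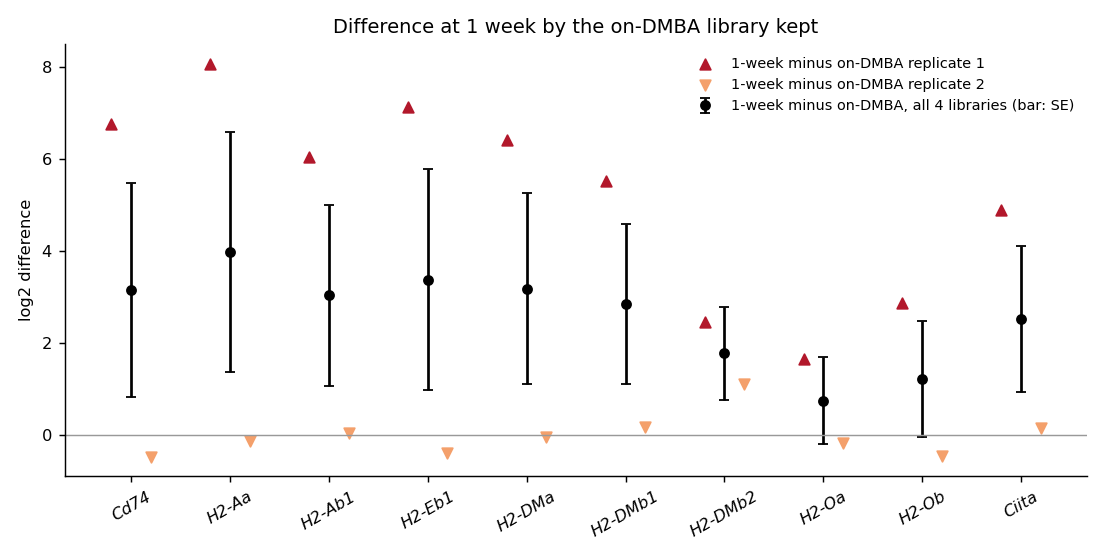
Log2 difference of each class II gene, 1-week minus on-DMBA, with all 4 libraries (black, bar: SE) and with either on-DMBA library as the only one kept. Against on-DMBA replicate 1 the differences run up to 8.06, and against on-DMBA replicate 2 they lie between -0.46 and 1.11.

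For every class II gene except H2-DMb2, the gap between the on-DMBA mice was wider than the difference between the groups. Replicate 2 exceeded replicate 1 on DMBA by a median of 5.67 on the log2 scale over the 10 genes, in a range of 1.34 for H2-DMb2 to 8.17 for H2-Aa. By more than 4-fold, 8 of the 10 were higher in on-DMBA replicate 2 than in on-DMBA replicate 1, where 13.6% of all genes tested were higher and 8.64% lower by as much. At 1 week the gap was 0.44 for Cd74 to 1.98 for H2-DMb2 with a median of 0.88, and all 10 were higher in replicate 2. None of the 10 differed by more than 4-fold there, where 0.266% of all genes tested were higher in replicate 2 by as much and 2.03% lower. The median absolute gap over all genes tested was 0.51 at 1 week and 1.02 on DMBA.

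In the 3 libraries where class II genes were abundant, the proportions of some pairs lay close together and those of others did not. The ratio of H2-Ab1 to H2-Aa reads was 1.09 and 1.06 at 1 week and 0.967 in on-DMBA replicate 2. H2-DMb1 to H2-DMa was 2.27 and 2.26 at 1 week and 1.95 in on-DMBA replicate 2. Cd74 to H2-Aa varied more, at 1.21 and 1.00 at 1 week and 1.40 in on-DMBA replicate 2. Ciita to H2-Aa was 0.0650 and 0.0924 at 1 week and 0.0638 in on-DMBA replicate 2, and the ratio of H2-DMb2 to H2-DMb1, given above, differed most widely of these. Cd74 gave 27.6% and 23.5% of class II reads at 1 week and 30.3% in on-DMBA replicate 2, and H2-Eb1 gave 18.8% and 20.9% at 1 week and 22.2% in on-DMBA replicate 2.

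Class II genes were then set against the summed level of the 5 pan-leukocyte genes in the same library. H2-Aa was at 75.1% and 65.6% of that sum at 1 week, against 50% and 61.1% on DMBA. H2-Eb1 was at 61.8% and 58.5% at 1 week, against 85.9% and 62.9% on DMBA. The shares of both genes differed far less between libraries than their levels did. In on-DMBA replicate 1 they rest on 39 reads of H2-Aa and 67 of H2-Eb1, over 7 to 26 reads of each pan-leukocyte gene. The groups did not overlap, with H2-Aa above and H2-Eb1 below at 1 week. Against Ptprc alone the groups overlapped for H2-Aa but not for H2-Eb1. Against the sum of the macrophage markers they overlapped for both.

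Cd74, H2-Ab1, H2-DMb1 and Ciita, like H2-Eb1, had their largest share in on-DMBA replicate 1. Cd74 was at 90.6% and 65.8% of the sum at 1 week, against 145% and 85.8% on DMBA. H2-Ab1 was at 82.2% and 69.5% at 1 week, against 237% and 59.1% on DMBA. H2-DMb1 was at 9.46% and 9.65% at 1 week, against 38.5% and 6.83% on DMBA, and Ciita at 4.88% and 6.06%, against 33.3% and 3.90%. For H2-Ab1, H2-DMb1 and Ciita, on-DMBA replicate 1 was the highest library and on-DMBA replicate 2 the lowest. As log2 ratios with the pseudocount of 0.5, the 1-week minus on-DMBA difference was 0.31 for H2-Aa and -0.30 for H2-Eb1 (two-sided exact permutation p = 0.333 each, the smallest that 2 against 2 allows). It was -0.52 for Cd74 (exact p = 0.667), and -0.63 for H2-Ab1, -0.82 for H2-DMb1 and -1.13 for Ciita (exact p = 1 each). Against the sum of the macrophage markers in place of the pan-leukocyte genes, H2-Aa turned to -0.25. H2-DMa, H2-DMb2, H2-Oa and H2-Ob had 4 reads or fewer in on-DMBA replicate 1, and their ratios there are not read.

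**Figure D4:**
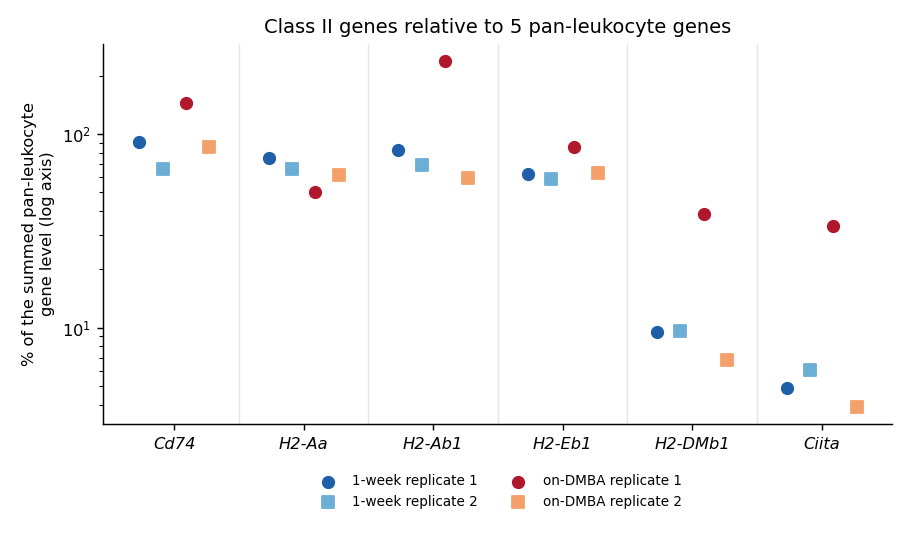
Level of 6 class II genes as a percent of the summed level of 5 pan-leukocyte genes in the same library, on a log axis, with 1 point per library. H2-Aa and H2-Eb1 lie close together in all 4 libraries, while H2-Ab1, H2-DMb1 and Ciita are higher in on-DMBA replicate 1 than in the other 3.

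Markers of cells that carry class II followed the same libraries, and their part in the class II levels was not tested. All 10 macrophage markers were lowest in on-DMBA replicate 1, with sums of 10847 and 15441 scaled CPM at 1 week, against 17.7 and 26318 on DMBA. None of the 10 was at 0, but Emr1, which encodes F4/80, was at 0.12 in on-DMBA replicate 1, against 1440 in on-DMBA replicate 2. The macrophage sum was highest in on-DMBA replicate 2, whereas the class II sum was highest in 1-week replicate 2. Those class II sums were 4694 and 7491 at 1 week, against 55.6 and 6872 on DMBA.

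Of the 10 dendritic cell markers, 8 were lowest in on-DMBA replicate 1, with sums of 316 and 630 at 1 week, against 7.96 and 247 on DMBA. The highest of them at 1 week was Itgax, the CD11c integrin chain, at 181 and 426 at 1 week, against 0.83 and 10.4 on DMBA. Its log2 difference was 6.19 (SE 1.12) with all 4 libraries and did not pass in limma or edgeR, but passed in DESeq2 (adjusted p = 0.00537). Without on-DMBA replicate 1 it was 4.67, but the median of the 10 markers was then -0.30, with 4 of 10 positive. Irf8, for one, was at 91.3 and 148 at 1 week, against 0.47 and 162 on DMBA. Flt3, the receptor for a dendritic cell growth factor, was at 2.97 and 6.28 at 1 week, against 0.47 and 2.51 on DMBA. The Langerhans lectin Cd207 was at 6.56 and 5.71 at 1 week, against 0 and 0.90 on DMBA, and the groups did not overlap. Epcam, which Langerhans cells share with other epithelium, was at 26.6 and 115 at 1 week, against 125 and 1.44 on DMBA. Without on-DMBA replicate 1, the log2 difference of Epcam was 4.85. The median was then 3.19 over the 8 keratinocyte markers and 2.26 over the 5 endothelial markers.

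B cell markers summed to 9.85 and 7.56 at 1 week, against 2.73 and 24.4 on DMBA. Of that last value Cd79b made up 20.8, while Ms4a1 was at 0.47 and 0.43 at 1 week, against 0 and 0.18 on DMBA. T cell markers summed to 59.2 and 76.3 at 1 week, against 2.85 and 31.0 on DMBA. Except in on-DMBA replicate 1 most of the sum was Cd4, which is also known from myeloid cells. Cd3e, under the filter, was at 0.31 and 0.57 at 1 week, against 0.12 and 0.18 on DMBA. Cd3g was at 1.56 and 8.84 at 1 week, against 0.24 and 0.54 on DMBA. Of the 5 T cell markers tested, 4 were higher at 1 week without overlap of the groups (14% of all genes tested). Fibroblast and endothelial markers were also lowest in on-DMBA replicate 1, in 6 of 6 and 5 of 5 genes, as were 5783 of the 15419 genes tested. Fibroblast sums were 45943 and 48532 at 1 week, against 161 and 40591 on DMBA.

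**Figure D5:**
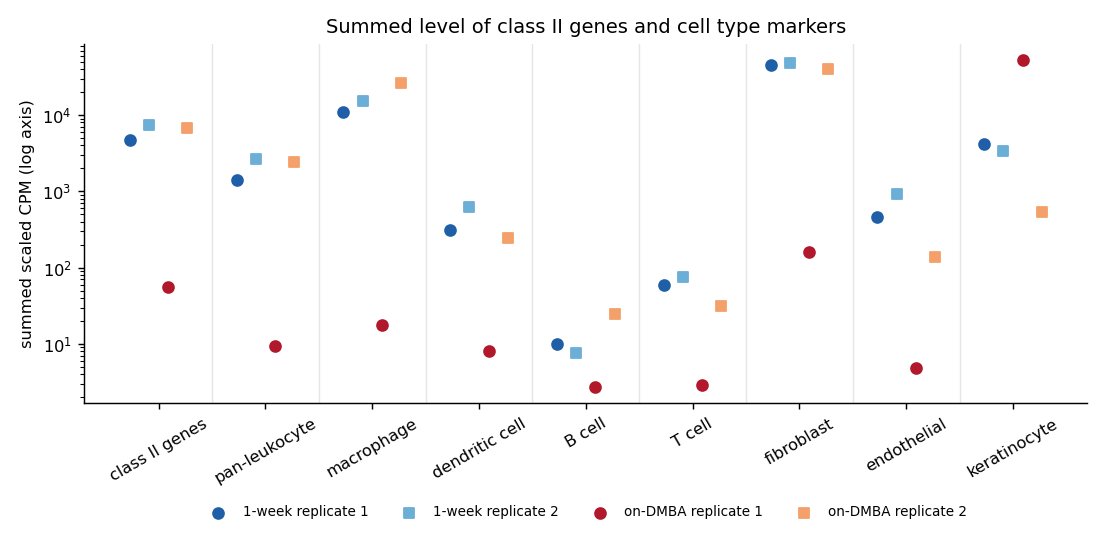
Summed scaled CPM, on a log axis, of the 10 class II genes and of 8 marker lists in each library, with 1 point per library. On-DMBA replicate 1 is the lowest in every list plotted except keratinocyte markers, where it is the highest.

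The factors that act on class II promoters did not follow the class II genes. In the list of RFX, NF-Y and CREB genes, the median log2 difference was -0.33, in a range of -0.47 to 0.44. Of the 7, 0 passed, as did 0% of all genes tested and 0 of the 10 class II genes. Rfx5, the DNA-binding RFX subunit, was at 16.1 and 18.5 scaled CPM at 1 week, against 31.8 and 18.3 on DMBA. Rfxank was at 12.7 and 9.98 at 1 week, against 7.72 and 8.61 on DMBA, and Nfya was at 28.0 and 41.4, against 29.8 and 42.5. Only 1 of these 7, Rfxank, was lowest in on-DMBA replicate 1, as were all 10 class II genes and 5783 of the 15419 genes tested.

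Genes of interferon gamma signalling, which induces Ciita, were measured beside them. Of these, 0 of 7 tested passed (0% of all genes tested), with a median log2 difference of 0.70. The cytokine Ifng itself was at 0.31 and 0 at 1 week, against 0 and 0 on DMBA, below the filter. Irf1, a transcription factor induced by interferon gamma, was at 83.1 and 120 at 1 week, against 36.1 and 183 on DMBA. Jak2, a kinase of the receptor, was at 133 and 199 at 1 week, against 62.0 and 83.1 on DMBA. It was higher in both 1-week libraries, with a log2 difference of 1.17 (SE 0.52) that did not pass.

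The genes of antigen processing in endosomes gave 0 of 8 past the threshold (0% of all genes tested), with a median log2 difference of 1.17. All 8 were lowest in on-DMBA replicate 1, as were 5783 of the 15419 genes tested. Ctss, the protease known for the last cuts of Cd74, was at 1480 and 2264 scaled CPM at 1 week, against 0.83 and 2311 on DMBA. Lgmn, the asparaginyl endopeptidase, was at 1117 and 1144 at 1 week, against 34.6 and 1417 on DMBA. Ifi30, a thiol reductase of endosomes, was at 94.7 and 136 at 1 week, against 23.2 and 81.1 on DMBA, without overlap of the groups. Ctsd, an aspartic protease of lysosomes in most cells, was at 1095 and 1527 at 1 week, against 1071 and 2945 on DMBA. The median of the 8 was -0.35 when on-DMBA replicate 1 was dropped. It was 2.29 when on-DMBA replicate 2 was dropped instead.

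Of the genes that set how long class II stays on the surface, 0 of 3 passed (0% of all genes tested). March1, a ubiquitin ligase that removes class II from the surface, was at 84.4 and 168 at 1 week, against 0.36 and 232 on DMBA. Cd83, which opposes March1, was at 46.0 and 85.6 at 1 week, against 0.12 and 203 on DMBA. Both were highest in on-DMBA replicate 2. The median of the 3 was -0.96, with 0 called, when on-DMBA replicate 1 was dropped.

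Of the co-stimulatory and co-inhibitory ligands, 0 of 6 passed (0% of all genes tested), with a median log2 difference of 2.46. Cd86 was at 69.2 and 118 at 1 week, against 0.24 and 96.2 on DMBA, and Cd40 was at 45.6 and 44.6, against 0 and 32.8. Pdcd1lg2, which encodes the PD-1 ligand PD-L2, was at 8.13 and 8.13 at 1 week, against 0.12 and 1.08 on DMBA. Its log2 difference was 3.13 (SE 0.80) with all 4 libraries and did not pass. Icosl, the ligand of ICOS, was the 1 gene of the 6 lower at 1 week, at 10.8 and 14.3, against 29.4 and 39.3 on DMBA. Its log2 difference was -1.42 (SE 0.56), and it did not pass either. Without on-DMBA replicate 1, the log2 difference of Pdcd1lg2 was 2.45, the largest of the 6, and their median was 0.59.

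The likeness of other genes was measured as the root mean square difference of profiles over the 4 libraries, each gene centred on its own mean in log2(scaled CPM + 0.5). The median profile of the 10 was 1.04 and 1.88 at 1 week, against -4.31 and 1.36 on DMBA. Among the class II genes the closest to it were H2-DMb1 (0.13), H2-Ab1 (0.14) and H2-DMa (0.31), and the farthest were H2-DMb2 (1.69) and H2-Oa (1.75). Outside them the 8 closest were Cd52 (0.13), Ctsz (0.14), Cd248 (0.16), Reg3g (0.16), Slc15a3 (0.18), Wipf1 (0.18), Nlrp3 (0.18) and Myo7a (0.18). Cd52, a surface glycoprotein of leukocytes, was at 35.3 and 61.5 scaled CPM at 1 week, against 0.24 and 47.6 on DMBA. Cd248, endosialin of fibroblasts and pericytes, was at 39.2 and 58.2 at 1 week, against 0.59 and 45.6 on DMBA. The 4 points share their libraries and depth, and the low point of on-DMBA replicate 1 sets most of each profile.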

How the data were processed

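Per the labels' protocols, RNA of the sorted cells was depleted of ribosomal RNA and sequenced with a kit that marks strand. The build mm9 and the tools TopHat2 2.1, CASAVA 1.8.2, edgeR 3.2.3 and HTSeq are listed in the submitters' processing notes, with no role or order. How strand was used in counting, and which annotation, is not given in the sources used here. Class II genes vary between strains, which was not tested. The labels number a separate mouse for each library. The authors deposited a normalised signal per gene, called CPM. Its columns sum to 867697 and 1092838 at 1 week and to 1149287 and 1011509 on DMBA, so it is named scaled CPM; the log-scale test planned for CPM was kept. All values (100%) were whole multiples of 1 step per library within 0.01 reads, which gave back whole reads.

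The filter was 1 scaled CPM in 2 libraries. Tests used limma 3.58.1 in R 4.3.3 (lmFit, eBayes with trend, two-sided, Benjamini-Hochberg, threshold 0.05), on log2(scaled CPM + 0.5), which understates the change of low genes. EdgeR 4.0.16 and DESeq2 1.42.0 ran on the recovered reads. The fits were tested on simulated data. Alternatives are listed in the closing part. The 10 genes, the other lists and the named genes (all members, genes of the fixed lists, and the 8 closest profiles) were chosen with earlier results of these data known. Some genes of the lists are not reported here by name.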

Additional observations from a re-analysis of the deposited data

How the results depend on the processing

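The differences between the groups depended on the on-DMBA library kept. Leaving out each library in turn gave 0 to 2212 genes called higher and 0 to 1549 called lower over all genes tested, 0 to 8 class II genes called higher, 1 to 10 higher without overlap (8 without 1-week replicate 1, 10 without on-DMBA replicate 2; 26% and 40.2% of all genes tested) and 0 to 2 lower without overlap (2 without on-DMBA replicate 1; 26.1%). The median of the 10 ranged from -0.077 to 5.78. Over the same settings the log2 difference ran from -0.46 to 6.76 for Cd74, -0.11 to 8.06 for H2-Aa, 0.044 to 6.04 for H2-Ab1, -0.38 to 7.12 for H2-Eb1, -0.043 to 6.41 for H2-DMa, 0.17 to 5.53 for H2-DMb1, 0.79 to 2.77 for H2-DMb2, -0.15 to 1.66 for H2-Oa, -0.44 to 2.88 for H2-Ob and 0.17 to 4.90 for Ciita. The lower end came without on-DMBA replicate 1, except for H2-DMb2, and every class II call came without on-DMBA replicate 2. The log2 ratio to pan-leukocyte genes ran from -1.61 to 0.35 for H2-Ab1, -2.12 to 0.48 for H2-DMb1 and -2.75 to 0.48 for Ciita. It ran from -1.23 to 0.27 for H2-DMa, -5.19 to 1.42 for H2-DMb2 and -5.99 to 0.16 for H2-Oa. The lower ends for H2-DMa, H2-DMb2 and H2-Oa rest on 4 reads or fewer in on-DMBA replicate 1 and are not read. Against macrophage markers the log2 ratio was -0.25 for H2-Aa.

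Across genes, the gap between the on-DMBA libraries did not go with the gap between the 1-week libraries (r = 0.015). With 2 libraries per group this is 1 correlation, so it cannot tell whether the replicate numbers pair the libraries. The labels give a separate mouse for each library and state no pairing. With a replicate block limma called 285 genes higher and 3 lower (1.85% and 0.0195%) and 2 class II genes higher, H2-Aa at 3.98 (adjusted p = 0.0202) and H2-DMa at 3.18 (adjusted p = 0.0301). DESeq2 called 16 and 3 genes, none of class II. A filter of 5 scaled CPM left out H2-DMb2, H2-Oa and H2-Ob, and then 0 were higher without overlap, since fewer genes were tested. Plain CPM moved the median of all genes tested to 0.11, against -0.024, and that of the 10 to 3.09. The pseudocounts of 0.1 and 1, the other filter, median ratio scaling and eBayes without the trend changed no direction or call of the 10. H2-Oa and H2-Ob had at most 30 reads in a library.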

Other observations

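Within on-DMBA replicate 1, H2-Ab1, Ciita, Cd74 and H2-Eb1 stood in another proportion to H2-Aa than in the remaining libraries. The comparison was made after the values were seen. All these ratios share the 39 H2-Aa reads of that library. The H2-Ab1 to H2-Aa read ratio was 1.09 and 1.06 at 1 week (95% exact binomial intervals 1.06 to 1.13 and 1.03 to 1.09), against 4.74 (3.34 to 6.88) and 0.967 (0.938 to 0.997) on DMBA. The 2 genes encode partner chains of 1 molecule, and on-DMBA replicate 1 held 185 reads of H2-Ab1 and 39 of H2-Aa. Ciita to H2-Aa was 0.0650 and 0.0924 at 1 week, against 0.667 (0.390 to 1.12) and 0.0638 on DMBA, with 26 Ciita reads in on-DMBA replicate 1. Cd74 to H2-Aa was 1.21 and 1.00 at 1 week, against 2.90 (2.00 to 4.28) and 1.40 on DMBA. H2-Eb1 to H2-Aa was 0.823 and 0.891 at 1 week, against 1.72 (1.14 to 2.62) and 1.03 on DMBA. The share of Cd74 in class II reads did not stand apart, at 27.6% and 23.5% at 1 week, against 24.1% (20.3 to 28.3) and 30.3% on DMBA. That of H2-Aa did, at 22.9% and 23.4% at 1 week, against 8.33% (5.99 to 11.2) and 21.6% on DMBA. In on-DMBA replicate 1 the share of H2-Ab1 was the highest of any library, at 39.5% (35.1 to 44.1). So were those of H2-DMb1, at 6.41% (4.37 to 9.02), and Ciita, at 5.56% (3.66 to 8.03). H2-Eb1 had its lowest share there, at 14.3% (11.3 to 17.8), although its ratio to H2-Aa was the highest. None of these intervals met those of the remaining libraries. H2-DMa, H2-DMb2, H2-Oa and H2-Ob had 4 reads or fewer there, and their shares are not read. The intervals cover counting error only, and the on-DMBA replicate 1 values rest on 1 mouse.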
